A study of Homo sapiens with 6 samples.

Results

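The genes described here encode the machinery that degrades RNA in human cells, 42 genes in all out of the 19970 protein-coding genes examined on the autosomes and the X. They comprise 12 genes of the RNA exosome, 11 of the CCR4-NOT deadenylase, the 2 genes of the PAN2-PAN3 deadenylase, 8 of decapping and 5′ exonucleolytic decay, and 9 of nonsense-mediated decay. A gene was called marked in a library when a GABPA ChIP-seq peak had its summit no more than 1 kb from the first or last base of the RefSeq span. By this rule 11 of the 42 genes were marked in both control libraries, and the other 31 were marked in none of the 3 libraries.

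GABPA is the DNA-binding subunit of the transcription factor GABP, and its ChIP-seq peaks were listed for 3 conditions of the melanoma line A-375. The first condition was the parental line with no knockout. The second was a line edited at ROSA26, grown from a single sorted cell and used as a control for editing. In the third, also grown from single sorted cells, the gene of the GABP B1 subunit was knocked out at exon 2 and TERT, the telomerase gene, was then knocked in. The effects of the subunit, of TERT and of the clone cannot be told apart. Each condition had 1 ChIP library and 1 input, and each ChIP library has its own peak list, with 3024 parental, 3857 ROSA26 and 1660 B1 knockout peaks. Peak lists carry no expression values, so the cell type was not checked against marker genes here. With 1 library per condition no comparison between conditions has a replicate check and no test was made.

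Cellular RNA is removed from both ends. Deadenylases of the CCR4-NOT and PAN2-PAN3 complexes shorten the poly(A) tail of mRNA, after which the RNA exosome degrades the body from the 3′ end, or the decapping complex removes the cap and exonucleases of the XRN family degrade it from the 5′ end. Nonsense-mediated decay recognises mRNAs that end translation too early, through the helicase UPF1 and its kinase SMG1. GABP binds DNA through the ETS domain of GABPA, which recognises a GGAA core, and B subunits join GABPA units so that neighbouring ETS sites can be bound together.

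In 8 of the 11 marked genes the promoter sequence could be read under the parental peak. Each held the letters CGGAAG, which contain GGAA, and the core means CGGAAG from here on. RefSeq promoter windows (GRCh38.p14, 250 bases before to 50 after a gene start) were found for 36 of the 42 genes, and 8 of these genes had a parental summit inside a window. The stretches below run from 100 bases before the start to 29 bases past it, except that of DIS3, which begins 250 bases before the start because its peak lies further upstream. They were chosen to show how the core lies under the peak in 7 of these 8 genes, of which EXOSC3, EXOSC6 and DCP1A came from the rule for printed sequences and EXOSC5, DIS3, EDC3 and EDC4 were added after their values were seen. DCP2, also chosen after its values were seen, is shown as a gene with the same core and no peak. Each is written 5′ to 3′ on the strand of the gene, and capitals mark the letters CGGAAG, or their reverse complement.

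EXOSC3, chr9:37785063-37785192, minus strand: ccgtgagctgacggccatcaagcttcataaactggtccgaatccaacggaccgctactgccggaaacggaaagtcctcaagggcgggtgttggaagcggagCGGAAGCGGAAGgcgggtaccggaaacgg

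EXOSC5, chr19:41397330-41397459, minus strand: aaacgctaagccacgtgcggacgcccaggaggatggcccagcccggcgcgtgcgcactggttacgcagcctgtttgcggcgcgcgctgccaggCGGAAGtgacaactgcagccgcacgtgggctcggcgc

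EXOSC6, chr16:70251911-70252040, minus strand: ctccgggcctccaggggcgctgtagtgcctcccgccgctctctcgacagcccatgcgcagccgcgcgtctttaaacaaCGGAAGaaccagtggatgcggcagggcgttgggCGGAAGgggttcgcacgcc

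DIS3, chr13:72782021-72782150, minus strand: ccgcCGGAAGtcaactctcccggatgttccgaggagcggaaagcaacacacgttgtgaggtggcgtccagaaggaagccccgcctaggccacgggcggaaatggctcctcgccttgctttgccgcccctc

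DCP1A, chr3:53347514-53347643, minus strand: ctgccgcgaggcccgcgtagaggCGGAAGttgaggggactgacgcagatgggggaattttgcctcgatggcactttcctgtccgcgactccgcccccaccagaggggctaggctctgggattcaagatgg

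EDC3, chr15:74695995-74696124, minus strand: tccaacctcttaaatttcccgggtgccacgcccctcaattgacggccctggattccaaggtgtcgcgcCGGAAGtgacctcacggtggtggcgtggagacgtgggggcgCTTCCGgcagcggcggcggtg

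EDC4, chr16:67872952-67873081, plus strand: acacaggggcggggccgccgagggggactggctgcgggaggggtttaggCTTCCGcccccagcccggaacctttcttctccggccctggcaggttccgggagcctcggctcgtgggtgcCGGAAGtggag

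DCP2, chr5:112976698-112976827, plus strand: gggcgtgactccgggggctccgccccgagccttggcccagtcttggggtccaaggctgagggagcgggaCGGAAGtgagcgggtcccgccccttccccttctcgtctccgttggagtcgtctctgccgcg

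All 8 genes with a parental summit in a window held CGGAAG there, on either strand, against 23.7% of the 22131 promoter windows of protein-coding genes. Among the 2428 windows with a parental summit anywhere in the genome the share was 82.8% (95% interval 81.3 to 84.3). By this string alone the RNA decay genes looked like other promoters with a peak. The longer string CCGGAAG, which contains CGGAAG, was the main string of the plan, and CGGAAG an alternative. CCGGAAG was found in 3 of the 8 genes (DIS3, EDC3 and EDC4), against 12.8% of all windows and 64.2% of windows with a parental summit. For the 8 genes its share was thus below that of windows with a parental summit. GGAAGT, which overlaps CGGAAG by 5 letters, was found in 7 of the 8, EXOSC6 being the exception, against 23.9% of all windows and 66.2% of windows with a parental summit. In EXOSC3 the GGAAGT lay 220 bp from the parental summit, apart from the CGGAAG copies. The nearest CGGAAG lay 3 bp from the parental summit at EDC4, 5 bp at EXOSC3, 8 bp at DCP1A and 51 bp at DIS3, with a median of 9.5 bp over the 8 genes and 15.0 bp over the 2011 windows with both.

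Several of these promoters held more than 1 copy of the core. In EXOSC3 a pair of CGGAAG copies lay end to end on the same strand, with starts 6 bp apart. EXOSC6 had copies 33 bp apart on 1 strand, EDC3 had copies 41 bp apart on opposite strands, and EDC4 had copies 70 bp apart on opposite strands. XRN2 had a second copy, 131 bp from the first, only in the window of its other RefSeq start. Counting XRN2, 5 of the 8 genes had at least 2 copies, against 41.5% of all windows with a parental summit and 6.42% of all windows. The 5 are genes counted by any of their windows, and the other shares are per window. Over the whole series, 50.7% of the windows with a summit in all 3 lists had at least 2 copies, and 28.0% of those with a summit in both controls and none in the knockout list. Among the RNA decay genes, 4 of the 5 with 2 copies had a knockout peak and EXOSC6 had none. Of those with 1 copy, DIS3 and DCP1A had a knockout peak and EXOSC5 had none. These genes are too few for a comparison by copy number.

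A core in the promoter was not always accompanied by a peak. Of the 36 RNA decay genes with a window, 17 held CGGAAG, and 8 of these had a parental summit in a window. Of 27 RNA decay genes with a promoter window that were marked in no list, 9 held CGGAAG in at least 1 window: CNOT2, CNOT3, CNOT8, CNOT9, DCP1B, DCP2, UPF1, UPF2 and UPF3A. SMG5, among the 27 but not the 9, had a ROSA26 summit in the window of a second start. Of all 19221 windows without a summit in any list, 15.3% held CGGAAG. That share is per window, whereas the 9 of 27 are genes, some of them with several windows. In the promoter of DCP2, the catalytic decapping enzyme, the core lay 31 bases before the gene start, and the nearest parental summit was 115537 bp from the gene.

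**Figure D1:**
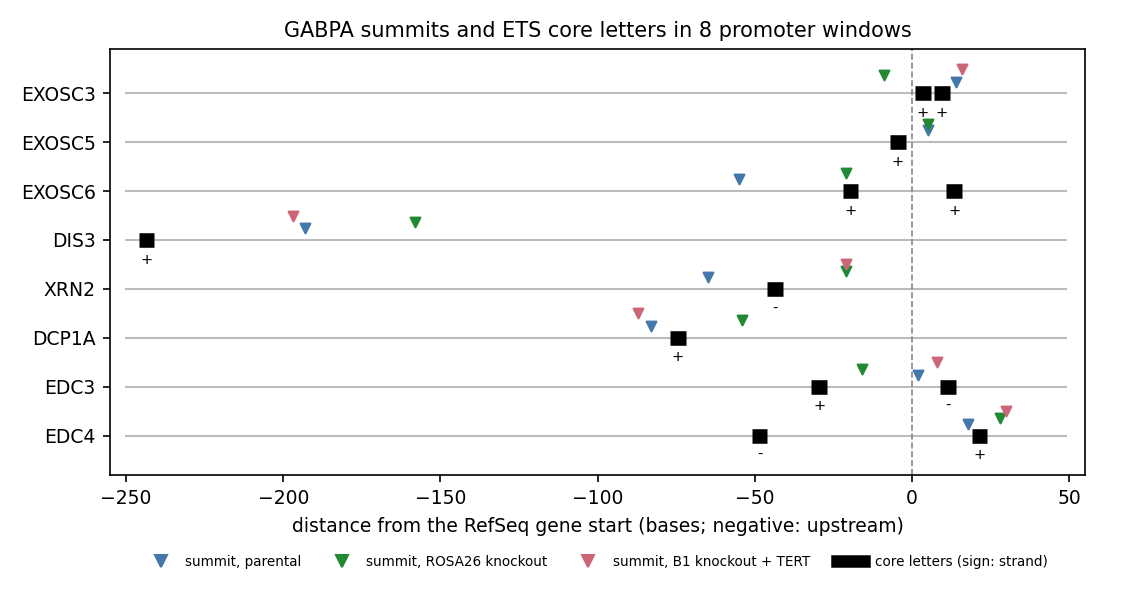
GABPA summits (triangles, coloured by list) and CGGAAG on either strand (black boxes with the strand sign) in the promoter windows of 8 RNA decay genes, with distance in bases from the RefSeq gene start on the horizontal axis. In 7 of the 8 genes CGGAAG lies within 35 bp of the parental summit, and DIS3 is the exception at 51 bp.

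In the parental library 4 of 12 exosome genes were marked (33.3%, 95% interval 9.92 to 65.1), 5 of 8 decapping and 5′ exonuclease genes (62.5%, 24.5 to 91.5), 1 of 11 CCR4-NOT genes (9.09%, 0.230 to 41.3) and 1 of 9 nonsense-mediated decay genes (11.1%, 0.281 to 48.2). Neither PAN2 nor PAN3 was marked. The same genes were marked in the ROSA26 library. Over the 42 genes this made 26.2% (13.9 to 42.04) in each control, against a background over all protein-coding genes of 15.5% (parental) and 18.5% (ROSA26). In the B1 knockout list 8 genes were marked, 19.0% (8.60 to 34.1), against 9.31% of all genes. The intervals are exact Clopper-Pearson intervals over genes and cover counting error only. For the 42 genes the interval includes the background in each of the 3 lists. For the decapping class its lower end, 24.5% in both controls and 15.7% in the knockout list, was above the background. This was the class with the highest share, and no allowance was made for that. For 14 other decapping genes the parental interval, 4.66 to 50.8, included the background. The intervals of the classes overlapped each other.

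**Figure D2:**
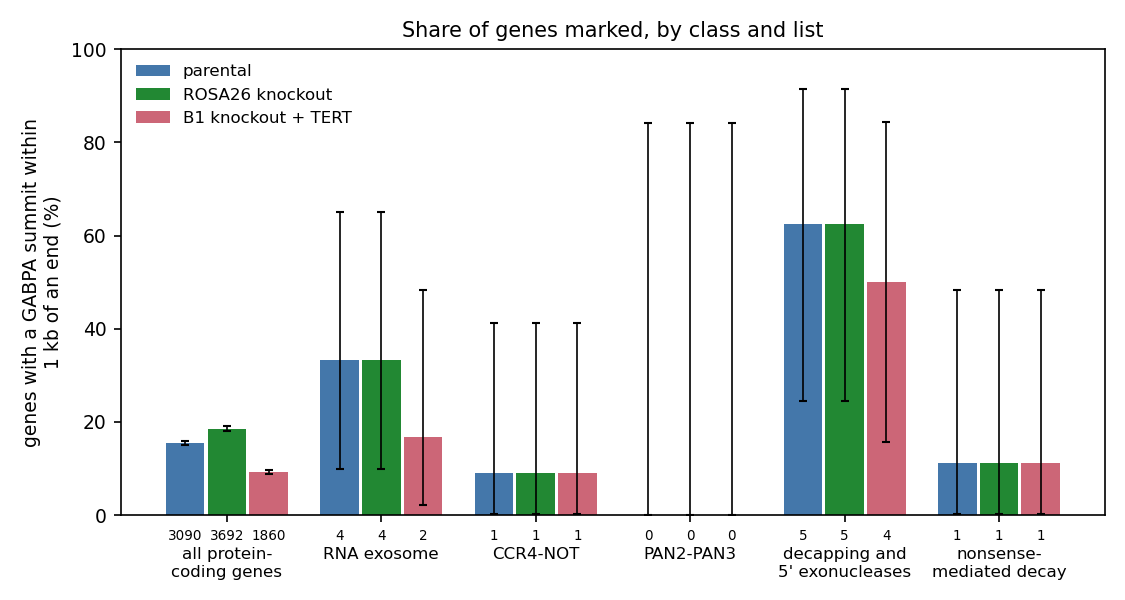
Share of genes with a GABPA summit within 1 kb of an end, for all protein-coding genes and for each class of RNA decay genes, in the 3 peak lists. Bars are shares, error bars exact 95% intervals over genes, and the number under each bar is the count of marked genes. The decapping class has the highest bars, 62.5% in the parental list, and its intervals overlap those of the other classes.

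Among the 4 exosome genes marked by the distance rule, the genes of a cap subunit and of the main nuclease had the highest folds. Fold enrichment, here and throughout the authors' own value for a peak, compares the pileup at the summit with a local background. Whether that background was taken from the input is not given. Folds are therefore set side by side, and a difference between lists is not read as a change in binding. EXOSC3, a cap subunit of the exosome core (chromosome 9, 37779714 to 37785092), had a fold of 13.0 in parental cells, 19.5 in ROSA26 cells and 9.38 in B1 knockout cells, the order used in the sentences that follow. Its summits lay 14, 9 and 16 bp from the last base of the span, the gene start on the minus strand. At them 306, 370 and 141 reads were recovered. It stood high in each list, at the percentiles 91.1, 98.6 and 81.9 of all peaks by fold. DIS3, the catalytic subunit that degrades RNA from the 3′ end (chromosome 13, 72752169 to 72781900), had folds of 12.6, 15.6 and 6.09, at the percentiles 89.6, 94.7 and 53.2. Its summit in the parental list was 193 bp outside the gene and 40 bp from the start of the neighbouring gene PIBF1 (72782133 to 73016461), so the peak cannot be assigned to DIS3 alone.

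The ring subunits EXOSC5 and EXOSC6 had weak peaks in the controls and none in the knockout list. EXOSC5 (chromosome 19, 41386374 to 41397359) had folds of 2.88 and 3.34 in the parental and ROSA26 lists, with 61 and 82 reads at a summit that was the same base in both, 5 bp inside the gene. EXOSC6 (chromosome 16, 70246778 to 70251940) had folds of 3.26 and 4.16, with 67 and 75 reads and summits 55 and 21 bp from the gene. Both genes have a neighbour with an end within 1 kb of the summit, BCKDHA at 464 bp and AARS1 at 303 bp. In the parental list these were among the weakest peaks, at the percentiles 3.90 and 8.15 by fold.

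EXOSC4, another ring subunit, was not marked by the distance rule but had the strongest peak of the exosome genes in the parental list inside its span. RefSeq gives the gene a span on chromosome 8 from 144064056 to 144080648, and the summit lay inside it at 144078570 in the parental list, 2078 bp from the nearer end. The fold was 20.4 there, 18.3 with ROSA26 edited (summit 144078615) and 10.7 in the knockout (summit 144078585). No other protein-coding gene has an end within 1 kb of that summit. Another summit, 1945 bp outside EXOSC4 in the parental list (fold 6.32), was 41 bp from an end of GPAA1. The peak inside EXOSC4 was singled out after its values were seen, and when summits inside a span are counted, 5 exosome genes were marked in both controls and 3 of them in the knockout list.

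The remaining 7 exosome genes had no peak nearby in the parental list. The nearest parental summit was 34552 bp from EXOSC1, 114214 bp from EXOSC2, 263616 bp from EXOSC7, 50057 bp from EXOSC8, 1106035 bp from EXOSC9, 6297 bp from the nuclear exonuclease gene EXOSC10 and 286754 bp from MTREX, the helicase that feeds nuclear RNA to the exosome. In the ROSA26 list a weak summit (fold 3.27) lay 1456 bp from EXOSC8, and 37 bp from an end of ALG5. Subunits of 1 complex thus ranged from peaks near the top of the parental list to no listed peak.

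CNOT10 was the 1 marked gene of CCR4-NOT. It encodes a subunit that pairs with CNOT11 at one end of the CNOT1 scaffold (chromosome 3, 32685188 to 32773875). Its folds were 6.41, 8.003 and 6.498 in the parental, ROSA26 and knockout lists, with 200, 161 and 75 reads at summits 1, 44 and 46 bp from the start of the span. RefSeq's promoter window for CNOT10 lies at another start and held no summit. None of the catalytic subunits CNOT6, CNOT6L, CNOT7 and CNOT8 was marked, nor the scaffold CNOT1. A summit 4457 bp outside CNOT1 (parental fold 7.54) was 15 bp from the nearer end of NDRG4 or SETD6, and one 3881 bp outside CNOT3 (fold 2.85) was 159 bp from the nearer end of LENG1 or TMC4. For the others the nearest parental summit was 657626 bp away at CNOT2, 152322 bp at CNOT4, 231860 bp at CNOT6, 42450 bp at CNOT6L, 675807 bp at CNOT7, 412368 bp at CNOT8, 74923 bp at CNOT9 and 250613 bp at CNOT11. It was 26260 bp away at PAN2, the catalytic subunit of the other deadenylase, and 363783 bp at its adaptor PAN3.

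Among the 8 genes of the decapping class, DCP1A, EDC3, EDC4, XRN2 and LSM1 were marked, and the decapping enzyme DCP2 was not. Of 14 other decapping genes, described further below, 3 were marked in both controls. DCP1A, an activator of DCP2 (chromosome 3, 53283429 to 53347543), had the highest fold of the marked genes in the parental and knockout lists, at 14.5, 18.4 and 13.6. The reads at its summit were 298, 279 and 181, and it lay at the percentiles 95.1, 98.1 and 95.1. EDC4, the scaffold of the decapping complex (chromosome 16, 67873052 to 67884499), had folds of 11.2, 15.9 and 8.58 and reads of 258, 285 and 166, with summits 18, 28 and 30 bp inside the gene. NUTF2 ends 503 bp from the parental summit. EDC3, an enhancer of decapping (chromosome 15, 74630558 to 74696024), had folds of 8.96, 11.6 and 10.2 and reads of 217, 244 and 140. Its summits lay within 16 bp of the last base of the span, the gene start on the minus strand, in each list. These 3 genes were above the median peak of each list.

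The nuclear exonuclease gene XRN2 and the decapping cofactor gene LSM1 differed in the knockout list. XRN2 degrades RNA from the 5′ end in the nucleus and acts at transcription termination (chromosome 20, 21303331 to 21389825). Its folds were 9.17, 8.55 and 6.67 and its reads 168, 219 and 100, with summits 65, 21 and 21 bp from the gene. LSM1, a subunit of the ring that binds the shortened 3′ end of mRNA (chromosome 8, 38163321 to 38176730), had folds of 4.21 and 6.76 in the controls, with 82 and 111 reads, and no knockout peak. Its parental summit lay 195 bp inside the gene, and 320 bp from the first base of BAG4. The unmarked genes of the class were XRN1, the cytoplasmic exonuclease (nearest parental summit 130808 bp away), DCP1B (136894 bp) and DCP2 (115537 bp).

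In nonsense-mediated decay only SMG8 was marked by the distance rule. SMG8 encodes a regulator of the kinase SMG1 (chromosome 17, 59210035 to 59215230) and had folds of 12.5, 10.96 and 9.82, with 244, 271 and 137 reads at summits 56, 43 and 41 bp from the gene. The helicase gene UPF1 had no parental summit within 51304 bp, and for UPF2, UPF3A, UPF3B and SMG1 the nearest was 152912, 8490, 19045 and 597480 bp away. For SMG5, SMG6 and SMG9 it was 55140, 9307 and 72252 bp away. In the ROSA26 list a weak summit (fold 3.00) lay inside SMG5, 8601 bp from the 5′ end of its span. This summit was in the promoter window of a second RefSeq start of SMG5 and 17 bp from an end of TMEM79.

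**Figure D3:**
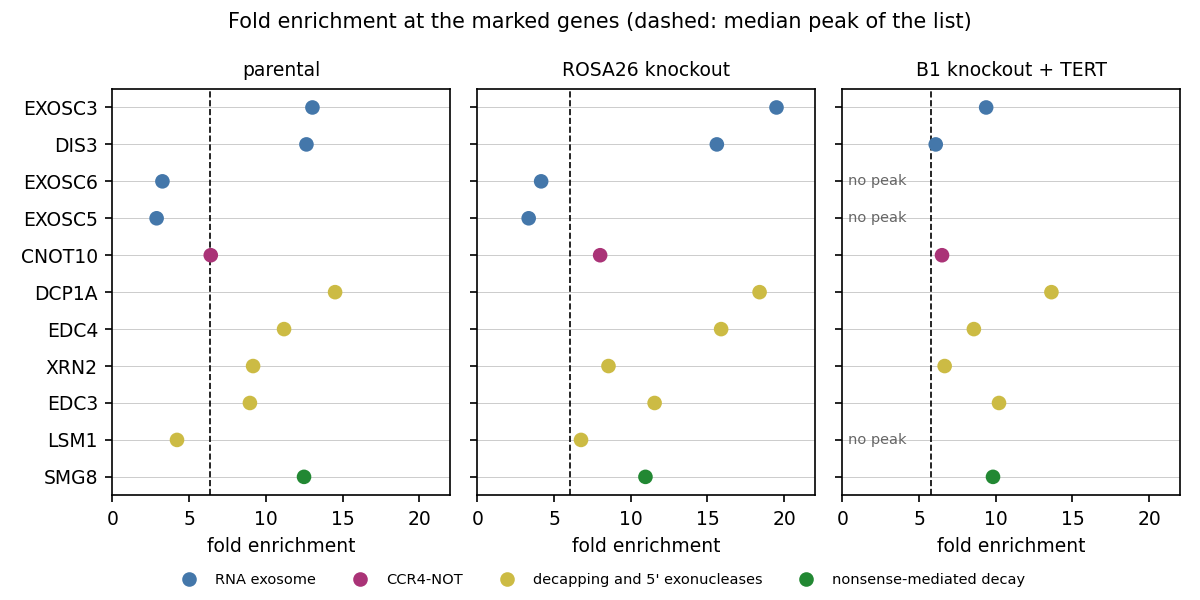
Fold enrichment of the peak at each of the 11 marked RNA decay genes in the parental, ROSA26 and B1 knockout lists, coloured by class, with the median peak of each list as a dashed line. EXOSC5, EXOSC6 and LSM1 have the lowest folds in both controls and no peak in the knockout list.

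Of the 11 genes marked in both controls, 8 also had a knockout peak (72.7%, 39.0 to 94.0), against 60.4% of all 3062 protein-coding genes marked in both controls. By class these were EXOSC3 and DIS3 of 4 exosome genes, CNOT10 of 1 CCR4-NOT gene, XRN2, DCP1A, EDC3 and EDC4 of 5 decapping genes, and SMG8 of 1 nonsense-mediated decay gene. If a summit is counted for the gene with the nearest end only, DIS3 drops out of all 3 lists in favour of PIBF1, and 1 of 3 exosome genes has a knockout peak. At each kept gene the summits of the 3 lists lay close together, within 12 bp at EDC4, 15 bp at SMG8, 24 bp at EDC3, 25 bp at EXOSC3 and at most 90 bp, at CNOT10.

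Genes with and without a knockout peak did not overlap in parental fold. The 3 genes without one had parental folds of 2.88, 3.26 and 4.21, and the 8 genes with one ran from 6.41 to 14.5. Over all genes marked in both controls the share with a knockout peak followed parental fold as well. It was 8.36% (6.49 to 10.5) in the lowest of 4 equal groups by fold, with folds up to 4.72, then 48.2% (44.6 to 51.8), 87.3% (84.8 to 89.6) and 97.8% (96.5 to 98.7) in the strongest, with folds from 10.3. EXOSC5, EXOSC6 and LSM1 lay in the lowest group, CNOT10 in the second, EDC3 and XRN2 in the third, and the other 5 in the strongest. Of the 590 genes with a parental fold no higher than that of LSM1, 5.59% (3.88 to 7.77) had a knockout peak, and of the 1718 genes with a fold at least that of CNOT10, 89.4% (87.9 to 90.8). With each list cut to its strongest 1660 peaks, EXOSC5, EXOSC6 and LSM1 were in none of the 3 lists. The other 8 genes were in all 3, where 89.0% of the genes in both controls were.

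**Figure D4:**
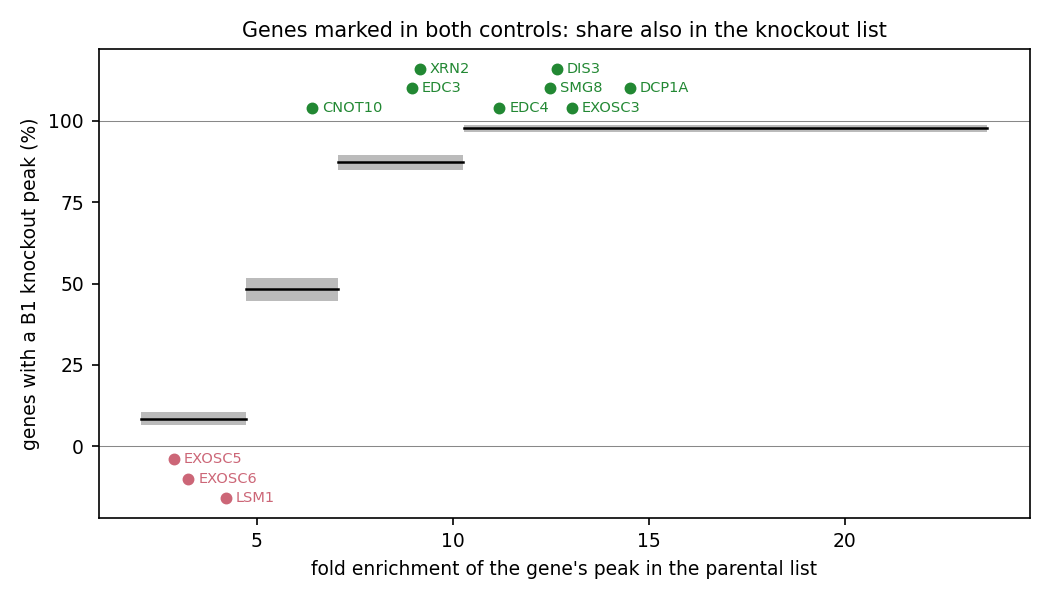
Share of genes marked in both controls that also had a B1 knockout peak (black lines, with exact 95% intervals in grey) in 4 equal groups by parental fold enrichment on the horizontal axis. Points name the RNA decay genes at their parental fold, above 100% those with a knockout peak and below 0% those without, and their height carries no value. The 3 genes without a knockout peak lie in the lowest group.

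The knockout library also had a lower background. The most common background pileup under the peaks was 9.86 reads there, against 15.4 reads (parental) and 14.2 reads (ROSA26) in the controls, a quantity that grows with depth and fragment length. With their reads scaled down to the knockout background, the control peaks had a −log10 p of 8.19 (parental) and 13.4 (ROSA26) at EXOSC5, 10.1 and 16.3 at EXOSC6, and 16.4 and 36.1 at LSM1. The lowest −log10 p in the knockout list was 4.74 and its 10th percentile 13.6. Over all 1212 genes in both controls without a knockout peak the scaled medians were 18.5 and 27.4, and 1209 of the parental values passed the lowest listed one. The part of library depth in the missing peaks was therefore not tested, and a gene without a listed peak is not shown to be unbound.

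Among the genes marked in all 3 lists, a set of 1850, the RNA decay genes stood at different percentiles by library, which with 1 library per condition is a description only. EDC3 stood at percentile 45.6 by fold in the parental library, 57.8 in that of ROSA26 and 85.03 in the knockout library, and CNOT10 at 17.0, 21.0 and 56.0. DIS3 stood at 79.9, 87.1 and 50.1. DCP1A stayed near the top, at 90.5, 95.7 and 94.7. From the parental to the knockout library the middle 90% of the 1850 genes shifted between −35.8 and 33.9 percentile points, and EDC3 (39.4) and CNOT10 (39.0) lay above that range, while DIS3 (−29.8) lay inside it. From the ROSA26 to the knockout library the range was −36.9 to 34.1, with CNOT10 (34.97) just above it, XRN2 (32.0), SMG8 (30.9) and EDC3 (27.2) inside it and DIS3 (−37.03) just below it. Both comparisons use the same knockout library. The control pair shifted as well, by −27.7 to 27.7 for the middle 90%, with XRN2 at −21.7 and SMG8 at −26.2.

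**Figure D5:**
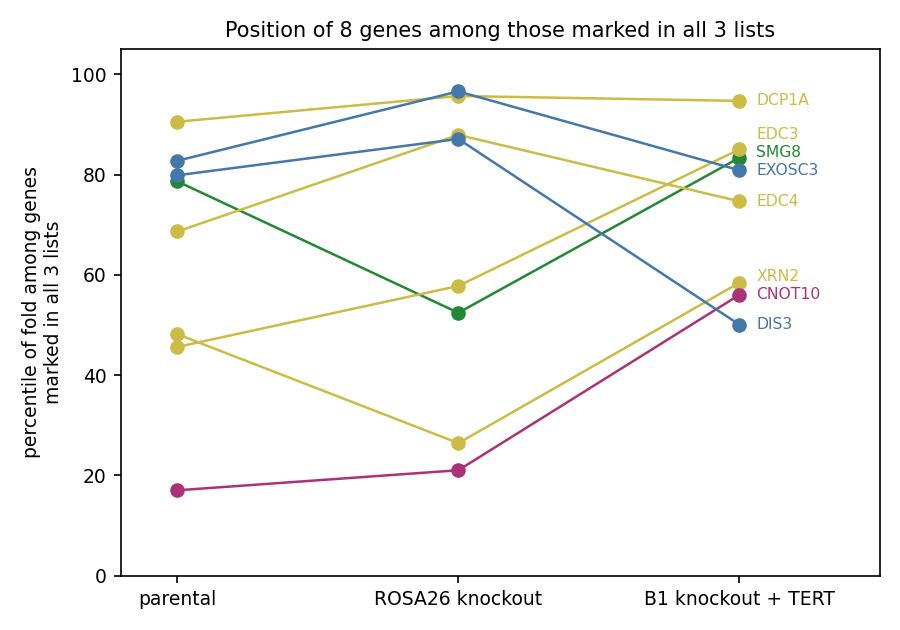
Percentile of fold enrichment among the 1850 genes marked in all 3 lists, for the 8 RNA decay genes among them, in the parental, ROSA26 and B1 knockout libraries. Lines join the values of 1 gene and colours give the class as in the plot of folds. EDC3, CNOT10, XRN2 and SMG8 have their highest value in the knockout library, where DIS3 and EXOSC3 have their lowest.

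Other genes of the same pathways were also marked in part. Of 58 such genes 22 were marked in parental cells (37.9%, 25.5 to 51.6), 26 in ROSA26 cells and 12 in knockout cells, beside 15.5%, 18.5% and 9.31% of all protein-coding genes. The parental 22 were marked in both controls, where 15.3% of all genes were. Of these 22, 12 had a knockout peak (54.5%, 32.2 to 75.6), near the 60.4% over all genes. Among exosome cofactors 6 of 15 were in both controls. SKIC2, the helicase of the cytoplasmic exosome cofactor, had folds of 15.7, 18.3 and 8.91, and ZFC3H1, of a nuclear adaptor, 10.2, 9.38 and 9.94. DIS3L2 (parental fold 5.80) and SKIC8 (4.72) had no knockout peak. Among 16 other genes of deadenylation and tail metabolism 4 were in both controls. PDE12 (7.10) and the uridylyltransferase gene TUT7 (6.70) had knockout peaks, and BTG1 (3.37) and the deadenylase gene PARN (2.83) had none.

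Of 14 other decapping genes 3 were in both controls. DXO, which removes faulty caps, had a parental fold of 7.98 and a knockout peak of 3.97, while LSM3 (4.31) and LSM4 (3.51), partners of LSM1 in its ring, had no knockout peak. Of 13 other genes of nonsense-mediated decay 9 were in both controls, and 6 of these had a knockout peak. The share in both controls was thus 21.4% (4.66 to 50.8) for these decapping genes and 69.2% (38.6 to 90.9) for these nonsense-mediated decay genes, beside 15.3% of all genes, and the intervals overlapped. The order of the decapping and nonsense-mediated decay classes was the reverse of that among the 42 genes. The termination factor gene ETF1 had folds of 11.1, 11.9 and 7.81. RNPS1 (6.65) and DHX34 (4.01) had no knockout peak. In this list, as in the 42 genes, no gene had a peak in the knockout list alone. Such genes were rare in the whole series, where 1850 of the 1860 genes marked in the knockout list were also marked in both controls.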

How the data were processed

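GABPA ChIP-seq peak lists of 3 A-375 conditions were used, 1 per ChIP sample, and the input libraries were not used here. Per the submitters' processing notes, reads were handled with Bowtie2, SAMtools and MACS2 on hg38. Their versions, the calling threshold and whether the input was used as control: not given in the sources used here. For each peak, the deposited lists give a fold enrichment (a ratio over local background), the −log10 p and −log10 q of the summit, and a score that is 10 times the −log10 q with decimals dropped.

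A gene was marked when a summit (peak start plus offset) lay within 1 kb of an end of its RefSeq span (GRCh38.p14), so a peak could count for several genes. Where a gene had several peaks the one of highest −log10 p was used. Reads and background at each summit were solved from fold and −log10 p with MACS2's formulas. All peaks were solved within 0.01, and the solver was tested on simulated data. Scale factors were 0.860 (parental), 1 (ROSA26) and 0.924 (knockout). Shares have exact Clopper-Pearson 95% intervals (SciPy 1.17.1). Promoter letters were searched on both strands. All 42 genes are accounted for, and of the other pathway genes the 2 strongest per class with and without a knockout peak are named, except for 1 that is not reported here. The genes, classes and lists were chosen with earlier results of these data known.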

Additional observations from a re-analysis of the deposited data

How the results depend on the processing

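Of 60 alternative values, 57 stayed within 1.5 times the value reported. These values are counts, and the number of genes they were taken from could change. With lists of equal length, 8 of 8 genes in both controls had a knockout peak in place of 8 of 11. For the exosome genes this was 2 of 2 in place of 2 of 4. Counts such as 1 of 1 had little room to move. The alternatives were summits within 500 bp or 2 kb, the nearest gene end only, summits inside the span, a −log10 q of at least 10, lists of equal length, and a knockout peak that overlaps the parental one by 1 bp or by 50% of both. Counted for the nearest end only, 1 exosome gene in place of 2 had a knockout peak, because the DIS3 peak is nearer to PIBF1. The letters CGGAAG were found in 8 and GGAAGT in 7 of the 8 genes with a parental summit in a promoter window, in place of 3 for CCGGAAG, which is the longer string. The other pathway genes were counted under 1 setting. No paired analysis was possible because each condition has 1 ChIP library. The knockout library had the lowest background reads, and the part of depth in the absent peaks was not tested.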
